A study of Mus musculus with 18 samples.

Results

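NK1.1+ TCRB+ cells of the spleen (NKT) were compared with the conventional T cells of the same organ, the CD4+ TCRB+ (T4) and CD8+ TCRB+ (T8) cells. The arrays were taken by their titles, 2 for each population, which gave 6 of the 18 arrays of the series, and the comparison set the NKT mean against the mean of the T4 and T8 population means over all genes. Spleens for all 3 groups were taken from B6 (C57BL/6) males at 6 weeks of age. Each mouse had received 10000 U of interferon gamma (IFNg) under the skin 2 h earlier, and cells of all groups were sorted on a FACSAria into TriZol, a reagent for RNA extraction. The platform was the Affymetrix Mouse Gene 1.0 ST array, which carries probe sets along whole transcripts. Untreated mice are not analysed here, so that levels after IFNg can be set side by side but no response to it can be read. Labels do not say whether the arrays of a population came from separate mice, and p-values therefore measure the spread between arrays, which may be technical.

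NKT cells are T cells that develop in the thymus along a path of their own, carry receptors otherwise known from NK cells, and release cytokines within hours of stimulation. The transcription factor PLZF, encoded by Zbtb16, drives this path in invariant NKT cells, whose T cell receptor recognises lipids on CD1d. Naive CD4 and CD8 T cells circulate between blood and lymphoid organs and need priming before they make such products. The NKT gate used NK1.1 and the beta chain of the T cell receptor, with no CD1d tetramer named in the labels, so invariant NKT cells cannot be told apart from other NK1.1+ T cells. Neither the T4 nor the T8 gate was labelled as excluding NK1.1+ cells, and the T4 gate did not exclude CD25+ cells.

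Levels below are log2 of the deposited intensity. A difference is the NKT mean minus the mean of T4 and T8 on that scale, where 1 is 2-fold, with its standard error (SE) from limma and a p adjusted over all genes by Benjamini-Hochberg. A gene is called higher or lower where the adjusted p was under 0.05 and the difference at least 2-fold. Median intensity lay between 138.5 and 151.0 on each of the 18 arrays. Over all genes, Pearson's r between replicate arrays was 0.9955 in NKT, 0.9951 in T4 and 0.994 in T8. Between T4 and T8 arrays it ran from 0.9863 to 0.9896, and between NKT and either of them from 0.9684 to 0.9764.

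Of 19752 genes, 331 were higher and 238 lower in NKT, which is 1.68% and 1.2% of those tested and together 2.88%. Differences of at least 4-fold in these calls numbered 95 higher and 38 lower. The median difference over all genes was 0.06 and the median SE 0.11. Of the 569 genes called, 556 had both NKT arrays outside the range of the 4 conventional arrays, where 39.4% of all genes lay so. Set against T4 alone, 308 genes were higher (1.56%) and 277 lower (1.4%), together 2.96%. Set against T8 alone, 360 were higher (1.82%) and 251 lower (1.27%), together 3.09%. These 2 comparisons share the NKT arrays. The conventional populations differed from each other in 190 genes (0.962%), of which 84 were higher in T8 (0.425%) and 106 lower (0.537%).

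**Figure D1:**
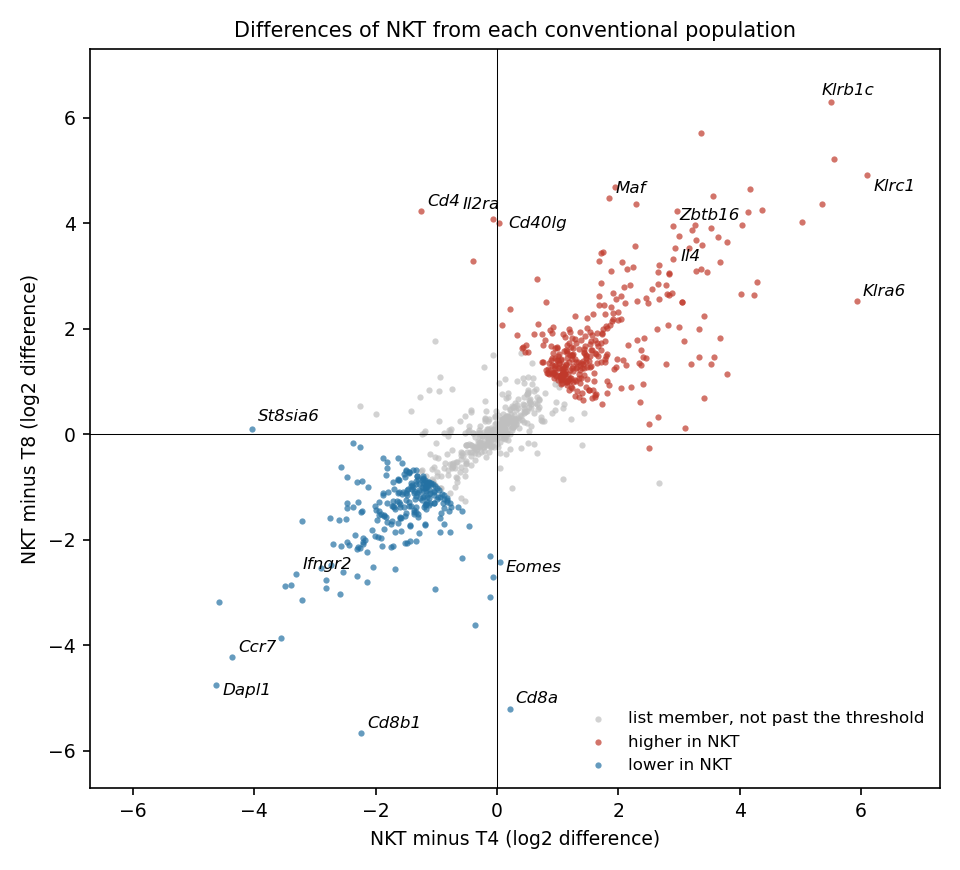
Difference of NKT from T4 (horizontal axis, log2) and from T8 (vertical axis, log2) for list members and called genes; each point is 1 gene, red where higher and blue where lower in NKT than the mean of T4 and T8, grey where a list member did not pass. Both axes use the same NKT arrays. Klrb1c lies at 5.50 and 6.29, Ccr7 at -4.37 and -4.22, and Cd8a at 0.21 and -5.20, so that its call rests on T8.

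The sort genes were highest where the labels place them. Klrb1c, which encodes NK1.1 in this strain, stood at 12.13 and 12.09 on the NKT arrays, 6.58 and 6.63 in T4 and 5.83 and 5.81 in T8. Both NKT arrays lay far above the other 4, with a difference of 5.90 (SE 0.18, adjusted p = 5.19e-13). NKT cells were sorted on this protein, so the difference is a check of the sort and not a finding. The levels of Cd3e, a chain of the CD3 complex, ran from 12.70 to 13.06 over the 6 arrays with NKT at 12.90 on both, while NK cells held 8.23 and 8.88. Of 28 measured genes of the CD3 complex and T cell receptor signalling, only the kinase gene Tec was called, 3.57% of the list beside 2.88% of all genes. Tec had a difference of 1.19 (SE 0.11, adjusted p = 3.9e-07), and the median difference of the list was 0.02.

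The coreceptors differed by population. Cd4 was 10.59 and 10.88 in NKT, 11.80 and 12.18 in T4 and 6.60 and 6.41 in T8, so NKT lay below T4 and above T8 without overlap with either. Cd8b1, the beta chain of CD8, was 6.32 and 6.38 in NKT, 8.54 and 8.63 in T4 and 12.08 and 11.95 in T8, which put NKT below all 4 arrays (difference -3.95, SE 0.11, adjusted p = 2.59e-13). Cd8a was level with T4, at 7.06 on both NKT arrays against 6.89 and 6.81, and below T8 at 12.28 and 12.24.

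T cell receptor segments were measured by 8 genes, 1 higher and 4 lower in NKT, too few to describe the repertoire, and the 4 alpha segments named here were chosen after their values were seen. Trgv1, a gamma chain variable segment, was 11.88 and 11.89 in NKT, 8.90 and 8.16 in T4 and 5.96 and 6.38 in T8, a difference of 4.54 (SE 0.18, adjusted p = 9.97e-12). The gamma delta T cells (Tgd) held a mean of 12.99. The delta chain segment Trdv2-2, also chosen after its values were seen, did not pass. Its means were 5.53 in NKT, 6.01 in T4, 5.78 in T8 and 12.39 in Tgd. Trav12-2, Trav14-1, Trav7d-4 and Trav19 were lower in NKT, with differences of -2.28, -2.13, -1.88 and -1.59. Trbv1, the 1 measured segment of the invariant NKT list, did not pass, at 11.70 on both NKT arrays against 10.93 to 11.64 in T4 and T8. Probes of such families can detect related segments, so these values are of probe sets rather than of single segments.

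Genes of NK receptors and their adaptors were the list with the most calls. Of 28 measured members 21 were higher and 0 lower, beside 1.68% and 1.2% of all genes. The median difference was 2.75 where all genes had 0.06. Klrb1c, on which NKT cells were sorted, is among the 21. Klrc1, the inhibitory receptor NKG2A that pairs with CD94 (Klrd1), was 11.78 and 11.59 in NKT, 5.41 and 5.75 in T4 and 6.39 and 7.16 in T8. NKT lay above all 4 arrays, by 5.51 (SE 0.21, adjusted p = 6.4e-12). Klrd1 itself was 11.47 and 11.43 in NKT, 8.09 and 7.98 in T4, and 10.83 and 10.67 in T8, so its difference of 2.06 came to 3.42 against T4 and 0.70 against T8.

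Activating receptors followed. Klrk1, which encodes NKG2D, was 11.27 and 10.89 in NKT, 6.06 and 6.04 in T4 and 7.0 and 7.10 in T8 (difference 4.53, SE 0.13, adjusted p = 2.61e-13). Ncr1, the NK receptor NKp46, was 8.89 and 9.03 in NKT against 4.95, 4.88, 5.05 and 4.94 in the 4 conventional arrays, a difference of 4.01 (SE 0.19, adjusted p = 7.79e-11). The same gene stood at 12.89 and 13.10 in NK cells, so that NKT lay between T cells and NK cells with no overlap. Cd160 was 11.44 and 11.52 in NKT, 7.10 and 7.28 in T4, and 8.77 and 8.41 in T8.

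The signalling adaptors showed unequal differences. Fcer1g, the Fc receptor gamma chain, was 10.96 and 11.02 in NKT, 7.43 and 7.99 in T4, and 7.21 and 7.41 in T8 (difference 3.48, SE 0.14, adjusted p = 1.2e-11). Tyrobp, which encodes DAP12, differed by 1.59 (SE 0.10), at 8.65 and 8.82 in NKT against 12.53 and 12.50 in NK cells. Hcst, which encodes DAP10, did not pass, with 9.49 and 9.51 in NKT against 8.83 to 9.34 in T4 and T8.

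Ly49 receptor genes split within the family. Klra5 was 8.46 and 8.52 in NKT against 3.98 to 4.31 in the 4 conventional arrays, and Klra6 10.03 and 10.67 in NKT, 4.6 and 4.25 in T4, and 7.61 and 8.03 in T8. Klra8 did not pass, at 6.54 and 6.02 in NKT, 4.72 and 4.95 in T4, 6.12 and 5.62 in T8, and 12.04 and 11.90 in NK cells. Klrg1 did not pass either, at 6.57 and 7.20 in NKT within the 5.88 to 7.84 of the conventional arrays, and at 11.58 and 11.46 in NK cells. These genes are close relatives, and probe sets of 1 member can detect another.

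**Figure D2:**
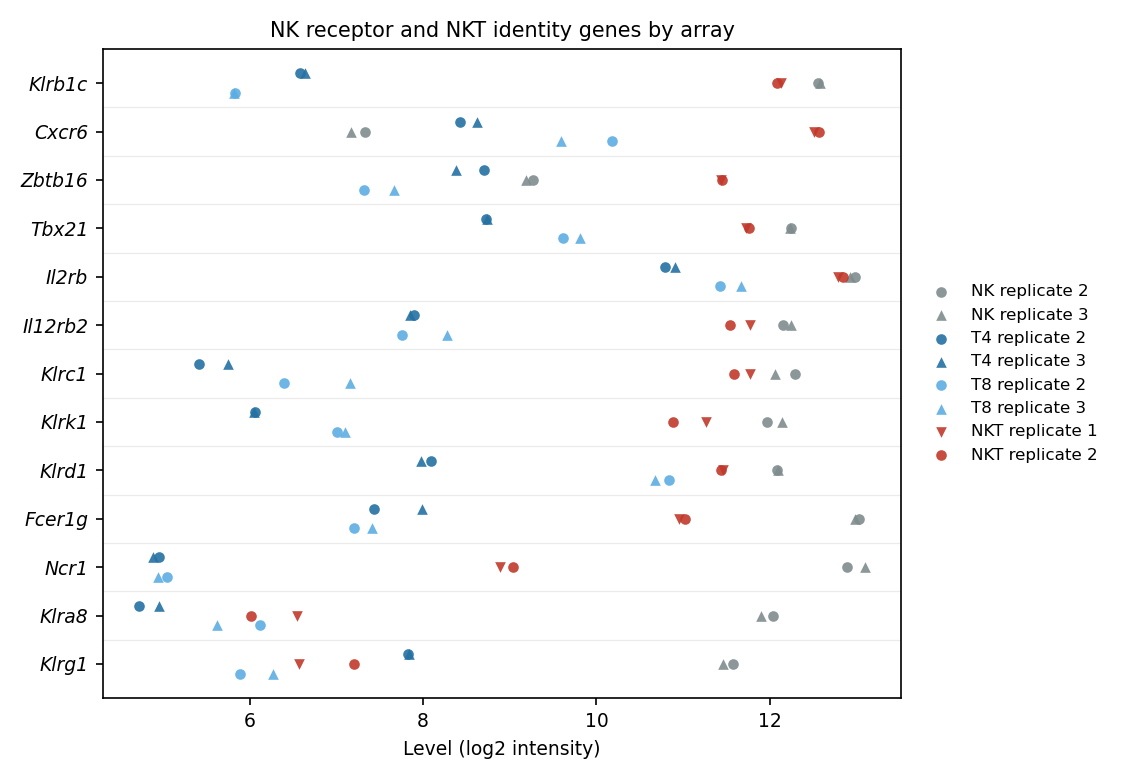
Level (log2 intensity, horizontal axis) of 13 genes of NK receptors and NKT identity on each array of NK, T4, T8 and NKT; marker shape gives the replicate number. Both NKT arrays lie above the 4 conventional arrays for the first 11 genes, while for Klra8 and Klrg1 they do not.

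Promoter windows show what sequence the NK receptor genes carry at their starts. RefSeq windows (GRCm38.p6, 250 bases before to 50 after a start) were at hand for 15483 of the genes tested and for 23 of the 28 NK receptor genes. They were searched on both strands for a Runx site (TGTGGTT), the binding letters of the Runx factors, which act in T and NK cells. The site was present in 4 of these 23 (17.4%), in 7.2% of the 250 higher genes with a window, in 3.8% of the 184 lower ones and in 5.23% of all. A T-box site (AGGTGTG), the letters read by T-bet and Eomes, was in 0 of the 23, 8.8% of higher genes, 7.61% of lower ones and 6.06% of all. A gene was counted where any of its windows held the site. Windows of Klrk1 (chr6:129623815-129624114, minus strand) and Ncr1 (chr7:4337465-4337764, plus strand) are shown with the Runx letters in capitals. Both were picked from the 4 genes with the site, as receptors described above. Ncr1 has 2 windows, and the window shown was picked by its count of the site.
Klrk1: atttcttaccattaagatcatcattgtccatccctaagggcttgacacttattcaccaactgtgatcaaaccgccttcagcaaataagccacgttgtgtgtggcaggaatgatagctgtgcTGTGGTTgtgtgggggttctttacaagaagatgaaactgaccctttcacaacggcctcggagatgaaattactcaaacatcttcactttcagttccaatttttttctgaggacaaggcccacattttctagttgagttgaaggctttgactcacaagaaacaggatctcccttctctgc
Ncr1: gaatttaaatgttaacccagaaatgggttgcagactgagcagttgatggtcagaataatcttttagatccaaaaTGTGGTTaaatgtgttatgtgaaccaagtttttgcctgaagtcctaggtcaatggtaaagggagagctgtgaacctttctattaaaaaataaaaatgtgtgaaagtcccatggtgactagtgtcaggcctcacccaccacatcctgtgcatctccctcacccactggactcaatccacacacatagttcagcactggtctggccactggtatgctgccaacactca

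Of 30 measured genes of NKT identity 15 were higher than in T4 and T8 and 1 lower, beside 1.68% and 1.2% of all genes. The median difference was 1.04, and the 15 include Klrb1c, on which NKT cells were sorted. Zbtb16 was 11.44 and 11.45 in NKT, 8.70 and 8.38 in T4, and 7.32 and 7.66 in T8, a difference of 3.43 (SE 0.15, adjusted p = 2.49e-11). The chemokine receptor gene Cxcr6 was 12.51 and 12.57 in NKT, 8.43 and 8.62 in T4, and 10.18 and 9.59 in T8 (difference 3.34, SE 0.14, adjusted p = 9.91e-12). NKT lay above every conventional array for both genes. NK cells held 7.32 and 7.16 of Cxcr6, below all T cell arrays.

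Receptors for activating cytokines were among this group. Il12rb2, a chain of the IL-12 receptor, was 11.77 and 11.54 in NKT, 7.89 and 7.84 in T4, and 7.76 and 8.27 in T8 (difference 3.72, SE 0.16, adjusted p = 2.49e-11). Il17rb, a receptor chain for IL-25, was 9.86 and 10.03 in NKT, 8.43 and 8.10 in T4, and 6.66 and 6.65 in T8. NKT cells exceeded T4 and T8 without overlap for each of these genes. Il2rb, the shared beta chain of the IL-2 and IL-15 receptors, differed by 1.62 (SE 0.19), and Icos, a costimulatory receptor, by 1.41 (SE 0.12). Several listed genes did not pass, among them Il18r1 with a difference of 0.68 and Slamf1 with -0.35.

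Of 21 measured cytokine genes 4 were higher and 1 lower, 23.8% of the list beside 2.88% of all genes. The median difference was 0.18. With no fold minimum, 9 had an adjusted p under 0.05, as did 2972 of all 19752 genes. Il4 was 9.96 and 9.83 in NKT, 7.01 and 6.92 in T4, and 6.38 and 6.34 in T8, a difference of 3.24 (SE 0.12, adjusted p = 3.82e-12). It was also higher than in NK cells, by 3.64 (SE 0.14, adjusted p = 3.87e-12), and than in Tgd cells, by 2.30. Tnfsf14, which encodes the ligand LIGHT, was 9.68 and 9.62 in NKT and between 7.12 and 7.20 on the 4 conventional arrays (difference 2.49, SE 0.11).

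Ifng, the gene of the injected cytokine itself, varied between the replicates of each population. It was 12.13 and 11.01 in NKT, 7.20 and 8.59 in T4, and 7.16 and 9.43 in T8, with NKT above all 4 arrays and a difference of 3.47 (SE 0.46, adjusted p = 3.02e-05). With the T4 and T8 arrays numbered 2 left out the difference was 2.56, and with those numbered 3 left out 4.39. Cd40lg, the ligand of CD40, was level with T4 at 9.76 and 9.70 against 9.82 and 9.56, and its call came from T8 at 5.73 and 5.72. Tnfsf8, the CD30 ligand, was the lower member, at 6.85 and 7.69 in NKT against 9.32 to 9.67 in T4 and T8 (difference -2.18, SE 0.21, adjusted p = 7.83e-07). Il17a, Il13, Il10 and Il2 did not pass, with differences of 0.24, 0.39, -0.09 and 0.13.

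Among chemokines, 3 of 12 measured members were higher and 0 lower. Xcl1, a chemokine that attracts cross-presenting dendritic cells, was 11.80 on both NKT arrays, 7.34 and 7.79 in T4, and 9.03 and 9.27 in T8 (difference 3.44, SE 0.15, adjusted p = 1.52e-11). Ccl5 was 13.37 and 13.31 in NKT, 9.74 and 10.28 in T4, and 11.33 and 12.41 in T8, with NKT highest. Ccl3 was 10.17 and 9.88 in NKT, 6.07 and 6.41 in T4, and 8.29 and 9.47 in T8, a difference of 2.47 (SE 0.36) that came to 3.79 against T4 and 1.15 against T8. The IFNg-inducible chemokine genes Cxcl9 and Cxcl10 did not pass, at 0.67 (SE 0.27) and 0.20 (SE 0.33).

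Cytotoxic genes rose in part. Of 22 measured members 8 were higher and 0 lower, 36.4% of the list beside 2.88% of all genes, with a median difference of 0.63. Fasl, the death ligand, was 10.91 on both NKT arrays, 7.49 and 8.40 in T4, and 6.53 and 6.82 in T8 (difference 3.60, SE 0.17, adjusted p = 8.92e-11). Serpinb6b, a protease inhibitor, differed by 2.13 (SE 0.12). Nkg7 was 13.04 and 13.05 in NKT, 9.71 and 10.17 in T4 and 12.89 and 12.96 in T8, so that its difference of 1.61 came to 3.11 against T4 and 0.12 against T8.

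Gzmb, Gzma and Prf1 stood well below NK cells, but this does not hold for the whole list. Of its 22 members 8 were lower than in NK cells, 1 was higher and 13 did not pass. Gzmb was 8.42 and 8.62 in NKT, 6.73 and 7.10 in T4, and 6.79 and 8.25 in T8, while NK cells held 12.50 and 12.58. Its difference of 1.31 (SE 0.31, adjusted p = 0.00648) did not pass without NKT replicate 2 (adjusted p = 0.0767), and without T8 replicate 2 it fell below 2-fold at 0.94. Gzma differed by 1.26 (SE 0.26) and did not pass without NKT replicate 2 (adjusted p = 0.0864). Prf1, which encodes perforin, was 10.11 and 9.76 in NKT, 8.61 and 8.45 in T4, and 10.16 and 10.13 in T8, and did not pass (difference 0.60, SE 0.15). Against NK cells all 3 were lower, by -4.02, -4.98 and -2.74.

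Most genes of the naive homing and survival list were low in NKT cells. The survival genes Il7r and Bcl2 on this list did not pass, with differences of only 1.21-fold and 1.19-fold in size. Of 24 measured members 15 were lower and 2 higher, with a median difference of -1.97, beside 1.2% of all genes called lower. Ccr7, the receptor that guides T cells into lymph nodes, was 7.70 and 8.0 in NKT, 12.13 and 12.31 in T4, and had a mean of 12.08 in T8. NKT lay below every conventional array, by -4.30 (SE 0.12, adjusted p = 1.77e-13), and level with NK cells at 7.64 and 7.74. Dapl1 showed the lowest difference of all genes, -4.69 (SE 0.20, adjusted p = 1.52e-11), at 7.98 and 8.52 in NKT against 12.81 to 13.06 in T4 and T8.

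Further members belonged to adhesion, cytokine receptors and the cell surface. Il6ra, the IL-6 receptor, was 7.82 and 7.96 in NKT, 11.15 and 11.41 in T4, and 10.56 and 10.95 in T8 (difference -3.13, SE 0.13, adjusted p = 1.64e-11). Actn1, an alpha-actinin, was 8.31 and 8.85 in NKT against 11.69 to 11.80 in T4 and T8. Cd55, a regulator of complement, was 6.14 and 6.29 in NKT, below the 9.03 to 9.17 of T4 and T8 and also below the 8.93 and 8.74 of NK cells. Igfbp4, St8sia1 (a sialyltransferase that makes the ganglioside GD3) and Fam169b, which is on no list, differed by -3.88, -3.19 and -3.71. S1pr1, the receptor for exit from lymphoid organs, was named after its values were seen, and was 9.26 and 9.55 in NKT against 11.52 to 11.72 in T4 and T8 (difference -2.21, SE 0.12). The 2 higher members were Cnr2, a cannabinoid receptor, at 1.16, and Ccr9, a gut homing receptor, at 1.13, the latter through T4 alone since T8 arrays held 11.69 and 11.33 and NKT 11.31 and 11.19.

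Receptors of effector and tissue homing went the other way, with 10 of 26 measured members higher and 1 lower and a median difference of 0.54. Calls made up 42.3% of this list, beside 2.88% of all genes. Ccr2, a receptor for inflammatory chemokines, was 10.58 and 10.64 in NKT, 7.25 and 7.22 in T4, and 7.14 and 6.88 in T8 (difference 3.49, SE 0.24, adjusted p = 1.06e-08). Itga1, the collagen-binding integrin CD49a, was 8.84 and 8.76 in NKT, 5.88 and 6.03 in T4, and 5.57 and 5.89 in T8, a difference of 2.95 (SE 0.15). Cd44, the hyaluronan receptor raised on memory T cells, differed by 2.02 (SE 0.10). The lower member was Cxcr5, the follicular homing receptor, at 5.31 and 5.95 in NKT against 6.89 to 7.72 in T4 and T8 (difference -1.72, SE 0.25, adjusted p = 7.26e-05).

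**Figure D3:**
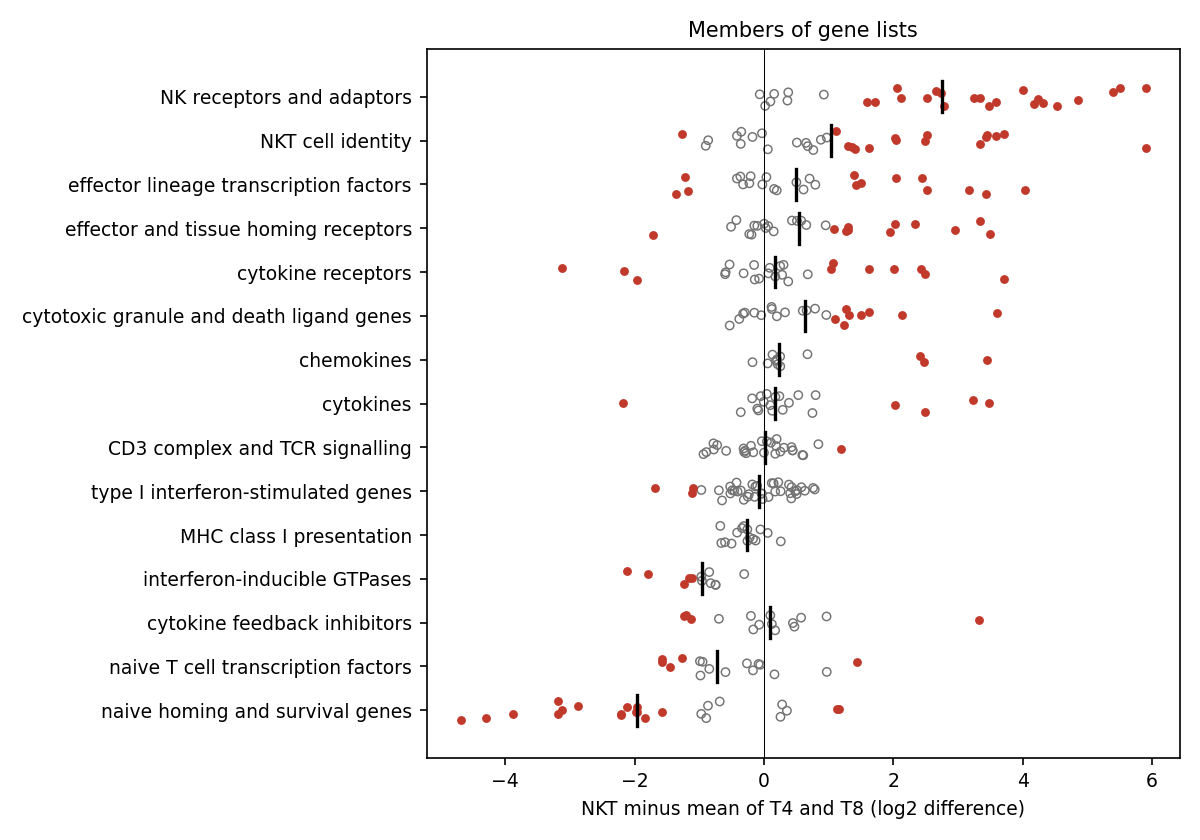
Difference of NKT from the mean of T4 and T8 (log2, horizontal axis) for the measured members of 15 gene lists; each circle is 1 gene, filled where called, and the black bar is the median of the list. Medians run from 2.75 for NK receptors to -1.97 for naive homing and survival genes, beside 0.06 for all genes.

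Transcription factors were called in both directions. Of 25 measured effector lineage factors 9 were higher and 3 lower, and of 16 naive T cell factors 1 was higher and 4 lower. Calls made up 48.0% and 31.2% of these lists, beside 2.88% of all genes. Bhlhe40, a repressor linked to cytokine production, was 10.85 and 10.74 in NKT, 6.68 and 7.79 in T4, and 5.69 and 6.88 in T8 (difference 4.03, SE 0.30, adjusted p = 3.02e-08). Maf was 11.25 and 11.26 in NKT, 9.33 and 9.48 in T4, and 6.52 and 7.03 in T8 (difference 3.16, SE 0.20), highest in NKT and lowest in T8. Tbx21, which encodes T-bet, was 11.72 and 11.77 in NKT, 8.73 and 8.74 in T4, and 9.62 and 9.81 in T8.

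Eomes, the other T-box factor of cytotoxic cells, was not raised. It was 7.94 and 8.32 in NKT, 8.32 and 7.85 in T4, 10.74 and 10.34 in T8, and 11.87 and 11.91 in NK cells, so that NKT overlapped T4 and its lower call (difference -1.18) rests on T8. Among naive factors, Lef1, Klf2 and Bach2 were lower, with differences of -1.58, -1.57 and -1.46. Lef1 was 10.40 and 10.61 in NKT and between 12.02 and 12.13 on the 4 conventional arrays. The count of lower naive factors was 7 without NKT replicate 2. Zbtb7b, the CD4 lineage factor ThPOK, was 9.84 and 10.04 in NKT, 10.47 and 10.21 in T4, and 6.70 and 6.62 in T8, and was called higher through T8.

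Other receptors of cytokines and cell contact were called in both directions. Of 25 measured cytokine receptor genes 7 were higher and 3 lower, 40.0% of the list beside 2.88% of all genes, with a median difference of 0.18. Il18rap, the accessory chain of the IL-18 receptor, was 10.16 and 10.61 in NKT, 7.14 and 7.48 in T4, and 8.65 and 8.58 in T8 (difference 2.42, SE 0.17). Tgfbr3, the TGF-beta coreceptor betaglycan, was 6.90 and 6.85 in NKT, 9.50 and 9.76 in T4, and 8.35 and 8.56 in T8, below all 4 arrays (difference -2.17, SE 0.10). Il6st, the signalling chain that pairs with Il6ra, was lower by -1.96 (SE 0.12), so that both chains of the IL-6 receptor were lower in NKT. The 2 calls for Il12rb1 and Il23r, the other chains of the IL-12 and IL-23 receptors, were small, at 1.06 and 1.04.

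Of 11 SLAM family receptors and adaptors, which carry signals in the selection of NKT cells, 2 were higher and 0 lower. That is 18.2% of the list beside 2.88% of all genes. Slamf7 was 11.63 on both NKT arrays, 8.10 and 8.33 in T4, and 9.40 and 9.37 in T8 (difference 2.83, SE 0.11), and Cd244a, the receptor 2B4, differed by 2.12 (SE 0.13). Slamf6 did not pass at -0.86. Of 23 costimulatory and inhibitory receptors 6 were higher and 2 lower (34.8% of the list), with a median difference of 0.10. Cd226, an adhesion receptor of NK and T cells, was 12.25 and 11.90 in NKT, 10.04 and 9.87 in T4, and 10.88 and 10.65 in T8 (difference 1.72, SE 0.13). NKT lay above all 4 arrays for Slamf7 and Cd226.

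Of 19 glycolysis genes 1 was higher and 2 lower, 15.8% of the list beside 2.88% of all genes, with a median difference of 0.12. Slc2a3, a glucose transporter, was 10.79 and 10.87 in NKT against 8.93 to 9.44 in T4 and T8 (difference 1.61, SE 0.11), while Pdk1, a kinase that restrains pyruvate oxidation, was 8.60 and 8.77 against 9.92 to 10.42 (difference -1.53, SE 0.10). Of 17 cell cycle genes 0 were called by limma, with 3 at an unadjusted p under 0.05, and 4 were lower without NKT replicate 2. Of 8 GIMAP genes, GTPases of lymphocyte survival, only Gimap7 was called (12.5% of the list), at 1.06 (SE 0.23). Of 7 gamma delta T cell markers Maf and Il23r were higher than in T4 and T8 (28.6% of the list). Against Tgd cells 4 of the 7 were lower in NKT and 1, Maf, higher, with a median difference of -1.18. The list summed to 3268 to 3298 in NKT, 1324 to 1393 in T4, 882 to 936 in T8 and 3507 to 3797 in Tgd. Such sums weigh bright members, here Maf, most. The mean log2 level of the 7 was 7.67 and 7.64 in NKT and 8.83 and 8.89 in Tgd. It was 7.07 on both T4 arrays, and 6.78 and 6.91 in T8.

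Components of the IFNg receptor and its signalling did not move together. Of 15 measured members 1 was higher and 2 lower, with a median difference of -0.31. Ifngr2, the chain that recruits Jak2, was 7.36 and 7.23 in NKT, 10.69 and 10.52 in T4, and 9.88 and 10.01 in T8. NKT lay below every conventional array, by -2.98 (SE 0.10, adjusted p = 1.55e-12), and overlapped NK cells at 6.99 and 7.34. Ifngr1, the ligand-binding chain, was 11.66 and 11.60 in NKT, 10.68 and 10.67 in T4, and 11.22 and 11.12 in T8, a difference of 0.71 (SE 0.09) that is under 2-fold.

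The kinases and factors downstream differed in sign. Jak2 was 11.41 and 11.37 in NKT, 10.25 and 10.26 in T4, and 10.12 and 9.97 in T8, higher by 1.24 (SE 0.11, adjusted p = 1.37e-07), while Jak1 differed by 0.09 (SE 0.07). Irf8, a factor induced by IFNg, was 8.82 and 9.11 in NKT, 10.64 and 10.52 in T4, and 9.93 and 10.18 in T8 (difference -1.35, SE 0.14, adjusted p = 1.93e-06). Irf1 was 10.97 and 11.11 in NKT against 11.82 to 12.22 in T4 and T8, a difference of -0.97 (SE 0.09) that lies just under the 2-fold minimum.

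Interferon-inducible GTPases act against intracellular pathogens, and all measured members were below T4 and T8 in NKT. Of 20 listed, 12 were measured, and the rest had only probe sets with several gene symbols. Of 12 measured members 5 were lower and 0 higher, 41.7% of the list beside 2.88% of all genes, with a median difference of -0.97. All 12 had both NKT arrays below the 4 conventional arrays, where 14.6% of all genes did. Iigp1 was 8.25 and 8.50 in NKT, 11.11 and 10.86 in T4, and 10.35 and 9.66 in T8 (difference -2.12, SE 0.16, adjusted p = 3.8e-08). Gbp11 was 8.68 and 8.73 in NKT, 10.75 and 10.59 in T4, and 10.43 and 10.23 in T8 (difference -1.80, SE 0.15). Gm4951, Gbp3 and Irgm1 were lower by -1.24, -1.16 and -1.11. Against NK cells 4 of the 12 were higher in NKT and 0 lower, among them Iigp1 by 1.61 (SE 0.19).

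Other interferon targets differed less. Of 40 measured type I interferon-stimulated genes 3 were lower and 0 higher, 7.5% of the list beside 2.88% of all genes. The median difference was -0.07. Irgm1, already counted among the GTPases, is 1 of the 3, and the others are Oasl2 and Oas2. Oasl2 was 8.36 and 8.70 in NKT, 10.76 and 10.32 in T4, and 9.95 and 9.82 in T8 (difference -1.68, SE 0.13), while Ifit1 overlapped at 10.91 and 11.16 against 10.05 to 11.14. The count of lower members was 5 without NKT replicate 2 and 2 without NKT replicate 1. Oas2 (difference -1.10) fell under 2-fold when NKT replicate 1, T4 replicate 2 or T8 replicate 2 was left out. Over all 40 the median was 0.07 with the T4 and T8 arrays numbered 2 left out and 0.04 without NKT replicate 1. Of 15 MHC class I presentation genes 0 were called by limma, with 10 at an unadjusted p under 0.05 and a median difference of -0.26. Differences were below 0 for 13 of the 15. Both NKT arrays lay below the 4 conventional arrays for 10 of them, where 14.6% of all genes did. B2m overlapped, at 13.26 and 13.19 in NKT against 13.09 to 13.27.

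Feedback inhibitors of cytokine signalling split. Socs1, an inhibitor of Jak kinases induced by IFNg, was 8.87 and 9.05 in NKT, 10.28 and 10.39 in T4, and 9.86 and 10.27 in T8 (difference -1.24, SE 0.14). Socs3 was 8.27 and 8.45 in NKT, 9.30 and 9.83 in T4, and 9.16 and 9.70 in T8 (difference -1.14, SE 0.21, adjusted p = 0.000738). Cd274, which encodes PD-L1, was lower by -1.21 (SE 0.08). NKT lay below all 4 arrays for these 3 genes. Socs2, in contrast, was 10.41 and 10.30 in NKT, 7.94 and 8.19 in T4, and 5.92 and 6.06 in T8 (difference 3.33, SE 0.18), and its other probe set gave 1.63 (SE 0.14).

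**Figure D4:**
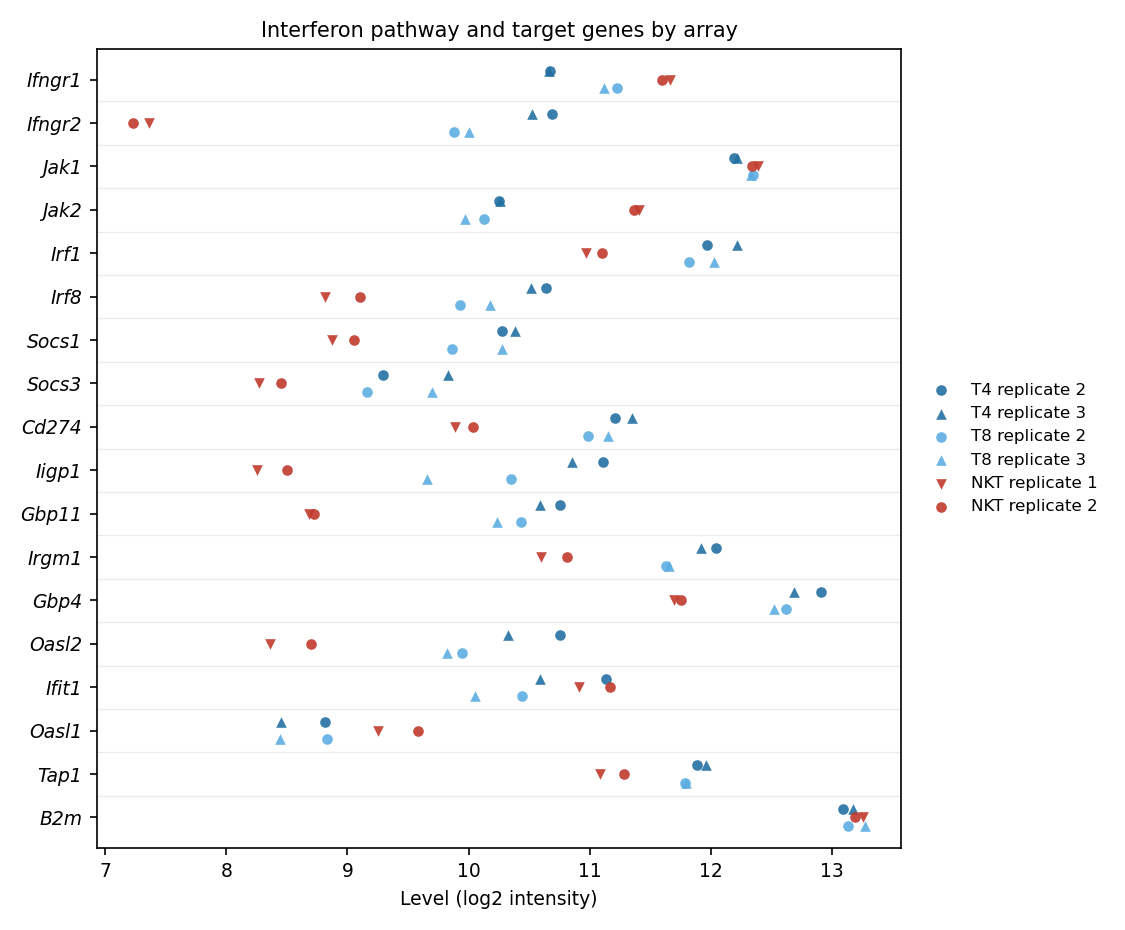
Level (log2 intensity, horizontal axis) of 18 genes of IFNg signalling, its feedback and interferon targets on the 6 arrays; marker shape gives the replicate number. NKT lies above T4 and T8 for Jak2 and below them for Ifngr2, Irf8, Socs1, Socs3, Cd274 and the GTPases, while Jak1, Ifit1 and B2m overlap.

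Immediate early genes, which respond within minutes to stimulation or handling, divided the arrays by number and not only by population. The sum of intensity over 22 measured members was 13755 on T4 replicate 2 and 24728 on T4 replicate 3, 12337 and 23720 in T8, and 25384 and 22738 in NKT. Fos, chosen here after its values were seen, was 6.91 and 9.40 in T4, 6.88 and 9.47 in T8, and 8.76 and 8.93 in NKT, so that NKT overlapped the arrays numbered 3. Dusp1, a phosphatase of this group, was the single member called, at 12.31 and 12.19 in NKT, 9.21 and 11.47 in T4, and 8.73 and 11.19 in T8 (difference 2.10, SE 0.53, adjusted p = 0.0115). Without NKT replicate 1 or 2 it did not pass (adjusted p = 0.117 and 0.0701), and with the T4 and T8 arrays numbered 2 left out its difference was 0.92. With those numbered 3 left out, 7 members were called. Ifng and Bhlhe40 also stood higher on the T4 and T8 arrays numbered 3, and the part of this split in their differences was not tested beyond the values with those arrays left out. For Bhlhe40 these were 3.46 without the arrays numbered 2 and 4.61 without those numbered 3.

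**Figure D5:**
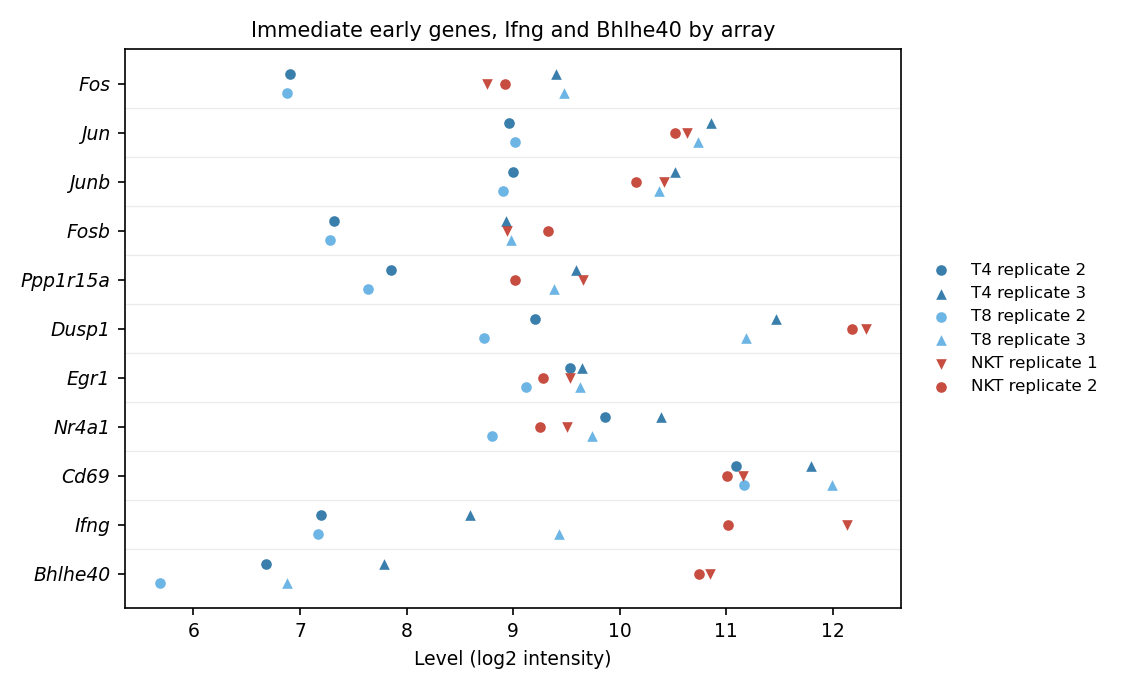
Level (log2 intensity, horizontal axis) of 9 immediate early genes, Ifng and Bhlhe40 on the 6 arrays; marker shape gives the replicate number. For Fos, Jun and Junb the T4 and T8 arrays numbered 2 lie below the other 4 arrays, while Ifng and Bhlhe40 are highest on the NKT arrays.

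Some calls rest on a difference between the conventional populations. Of the 569 genes called, 91 also differed between T8 and T4, and 13 had NKT arrays that overlapped the conventional range. Il2ra, the alpha chain of the IL-2 receptor, was 10.86 and 11.03 in NKT, 11.01 and 10.99 in T4, and 6.86 and 6.88 in T8, a level shared with T4. St8sia6, a sialyltransferase, was 6.58 and 6.63 in NKT, 10.65 on both T4 arrays, and 6.58 and 6.43 in T8, a level shared with T8. Of 14 regulatory T cell genes 3 were lower in NKT (Ctla4, Gpr83 and Itgae) and 3 higher (Il2ra, Ikzf2 and Tnfrsf18). That is 42.9% of the list beside 2.88% of all genes. Foxp3, which defines regulatory T cells, had a mean of 9.97 in T4, above 7.65 and 7.78 in NKT and 7.15 and 7.20 in T8, and a mean of 12.01 in the regulatory T cell arrays. The summed intensity of the 14 list members was 10978 to 11153 in T4, 8122 to 8874 in NKT and 4158 to 5056 in T8, and the part of regulatory T cells in these calls was not tested. Fewer cells of a type and less RNA per cell cannot be told apart in bulk samples.

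Against the other NK1.1+ population, the NK cells, 299 genes were higher and 427 lower in NKT, 1.51% and 2.16% of those tested and together 3.68%. Of 28 NK receptor genes 17 were lower than in NK cells and 1 higher. Klrb1c did not differ beyond the threshold, by -0.46 (SE 0.21, adjusted p = 0.167), while Klra8, Ncr1 and Klrb1a were lower by -5.69, -4.03 and -3.89. Cxcr6 and Zbtb16 were higher than in NK cells, by 5.30 (SE 0.16) and 2.22 (SE 0.17). Against Tgd cells 174 genes were higher and 220 lower, 0.881% and 1.11% and together 1.99%. Of 28 NK receptor genes 10 were higher than in Tgd, 1 was lower and 17 did not pass, among them Klrc1 at 0.76 (SE 0.25), Ncr1 at 0.85 (SE 0.22) and Tyrobp at -0.02 (SE 0.11). Of 30 NKT identity genes 10 were higher than in Tgd and 3 lower. Ccr7 and Ifngr2 were lower than in Tgd by -3.04 and -2.30. Il4 was higher by 2.30, and Klrb1c, on which NKT cells were sorted, by 3.18.

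Markers of other cell types were low in NKT. The summed intensity of 14 granulocyte genes was 2214 to 2534 in NKT, 926 to 1030 in T4 and T8, and 92042 to 104382 in granulocytes. Mmp9, a matrix protease on that list, was the member called, at 10.66 and 10.42 in NKT against 6.50 to 7.10 in T4 and T8 (difference 3.73, SE 0.28, adjusted p = 2.99e-08). The defining markers Ly6g and S100a8 stood at 6.14 and 5.86 and at 5.52 and 5.39 in NKT, within or beside the 5.8 to 6.34 and 5.24 to 5.53 of the conventional arrays. Dendritic cell genes summed to 4887 to 5659 in NKT, 2430 to 2694 in T4, 4546 to 5548 in T8 and 60472 to 62378 in dendritic cells. Of its 14 members, H2-Aa, H2-Ab1 and Ccr9 were higher. H2-Aa differed by 1.20 and H2-Ab1 by 1.04, and neither passed without NKT replicate 1 (0.95 and 0.82), T4 replicate 2 (0.97 and 0.95) or T8 replicate 3 (0.95 and 0.88). Flt3, which defines dendritic cells, was 6.44 and 6.45 in NKT against 6.19 to 6.53 in T4 and T8. B cell genes summed to 1102 to 1121 in NKT, below the 1255 to 2034 of T4 and T8, and 1 of 11, Cd79b, was lower. Macrophage genes summed to 3248 to 3737 in NKT, 2017 to 3034 in T4, 1545 to 1633 in T8 and 77359 to 81011 in macrophages, and Ccr2 was the single member of 14 called. Vsig4 and Adgre1, which define macrophages, stood at 4.33 and 4.73 and at 6.08 and 6.36 in NKT against means of 12.09 and 12.76 in macrophages. Of 6 red blood cell and platelet genes 0 were called by limma, with 0 at an unadjusted p under 0.05, and their sum was 622 to 700 in NKT and 656 to 691 in T4 and T8. The parts of other cell types in Mmp9, Ccr2 and the class II genes were not tested beyond these values.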

How the data were processed

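The deposited series matrix held linear intensity values that the authors made with RMA in Affymetrix Power Tools, per the submitters' processing notes; versions are not given in the sources used here. RMA compresses differences of dim genes. Intensities were taken to log2. Of 24922 probe sets, 21425 had 1 gene symbol in the platform annotation, 1399 had several and 2098 none; only the first were named. For 921 genes with more than 1 probe set the brightest was used, which left 19752 genes.

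The two-sided test was limma's (version 3.58.1, R 4.3.3, eBayes with a trend of variance on level), fitted to all 18 arrays with 1 mean for each of 9 populations, which gave 9 residual and 7.69 prior degrees of freedom. It was tested first on simulated data with independent noise, so deviations shared by arrays of the same number were not part of that test. The number of arrays limits the precision. Named genes are, of those called, up to 3 per list with the largest differences and the 10 highest and 10 lowest overall outside the conventional range, leaving out clones, predicted genes and small RNAs; members of the sort gene, NKT identity, NK receptor, cytokine, chemokine, cytotoxic and interferon lists are named also where they did not pass, and listed genes that differ between T4 and T8 may be named. Markers of other cell types are given as checks. S1pr1, Cnr2, Cxcr5, Socs3, Il18rap, Tgfbr3, Il6st, Il12rb1, Ikzf2, Tnfrsf18, the plotted immediate early genes, the alpha segments, Trdv2-2 and the genes of the closing paragraphs lie outside this rule and were chosen after their values were seen. Members, comparisons and the 31 lists were chosen with earlier results of these data known. Replicate numbers are 1 and 2 in NKT and 2 and 3 in T4 and T8. Deviations of arrays with the same numbers correlated between populations from -0.161 to 0.468, with T4 and T8 at 0.341; since not every pair was above 0.1 and no label ties the numbers, no block was used in the main fit. Sequences are from RefSeq; a search for a further motif is not reported here. Alternatives covered the arrays fitted, trend, array weights, quantile normalization, dim genes, probe sets, the fold minimum, a replicate block and leaving out arrays.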

Additional observations from a re-analysis of the deposited data

Results flagged for a closer look

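For 2 listed genes NKT was called against both T4 and T8, in opposite directions. The difference between the T8 and T4 populations was itself tested. Cd4 was lower in NKT than in T4 by -1.25 and higher than in T8 by 4.23, with T8 against T4 at -5.48 (SE 0.19, limma adjusted p = 6.17e-12). The sort used this protein for T4, so its difference between T8 and T4 is not a finding. Cd200r1, an inhibitory receptor of the immunoglobulin family, was lower in NKT than in T4 by -1.03 and higher than in T8 by 1.77, with T8 against T4 at -2.80 (SE 0.15, limma adjusted p = 1.95e-09). Its levels were 7.51 and 7.79 in NKT, 8.79 and 8.56 in T4, and 5.84 and 5.92 in T8, with no overlap.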

How the results depend on the processing

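Without a fold minimum, the calls higher and lower were 1454 and 1518 against the mean of T4 and T8, 997 and 1232 against T4, 1390 and 1281 against T8, and 284 and 402 for T8 against T4. With at least 4-fold, they were 95 and 38, 91 and 53, 98 and 46, and 20 and 19. With a replicate block over all 18 arrays, 352 genes were higher and 231 lower against the mean of T4 and T8, of which 317 and 212 were the same genes. The labels do not say that a number marks a shared source, and deviations of same-numbered arrays did not correlate in every pair of populations, but for T4 with T8 they did (r = 0.341), and the main model has no term for this. Leaving out 1 of the 6 arrays in turn gave 301 to 354 higher and 195 to 304 lower. The limits set by 2 arrays a population show in single genes. The check of single genes below took only genes called in the main fit, so genes named as not passing were not in it. Of 122 genes named in the text or chosen for it, with 2195 alternative values, 0 reversed and 85 no longer passed, mostly under the 4-fold minimum; besides those given in the report, Gimap7, Slc16a1, Il23r, Ccr9, Tnfsf10, Gbp3 and Rgs2 did so under 1 or more other settings.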

Other observations

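Gene groups outside the lists are described here as values, and all genes in these paragraphs were chosen after their values were seen. The sensors of the unfolded protein response were each higher in NKT than in the mean of T4 and T8. Ern1, which encodes the sensor IRE1 alpha, was 9.76 and 9.91 in NKT, 8.02 and 8.04 in T4, and 7.72 and 7.85 in T8 (difference 1.92, SE 0.11, limma adjusted p = 1.42e-09). Atf6 differed by 1.45 (SE 0.09) and Eif2ak3, which encodes PERK, by 1.14 (SE 0.11). NK cells held 10.19 and 10.29 of Ern1, while their Eif2ak3 was 8.73 and 8.40 against 9.73 and 9.68 in NKT. Etv5, an ETS factor, was 9.01 and 8.90 in NKT and between 6.88 and 7.17 in T4 and T8, and Spry2 and Dusp6 differed by 1.58 and 1.57. Rgs1 and Rgs2, regulators of G protein signalling, differed by 2.29 and 1.75, but like the immediate early genes they stood higher on the T4 and T8 arrays numbered 3.

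Of the genes on no list, Atp8a2, a phospholipid flippase, had the smallest adjusted p of those named, 7.33e-15 by limma. It was 11.50 and 11.45 in NKT, 7.27 and 7.34 in T4, 6.87 and 6.79 in T8, and 6.75 and 6.89 in NK cells. Asb2, Slc27a6 and Trpm6 were also higher in NKT than in T4, T8 and NK cells, with differences from the mean of T4 and T8 of 3.55, 3.19 and 3.11. Entpd1 and P2rx7, an enzyme that degrades extracellular ATP and a receptor for it, differed by 2.71 and 2.58. Genes of MHC class II presentation were called in both directions. H2-Ob, H2-DMa and Ctss were lower in NKT, by -2.57, -1.44 and -1.55. H2-Aa and H2-Ab1 were higher, by 1.20 and 1.04, but these calls depended on single arrays. Without NKT replicate 1 the 2 differences were 0.95 and 0.82. The costimulatory ligand Cd86 was lower by -1.79.

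Of 269 microRNA genes with a probe set, 2 were called, both lower, a smaller share than the 2.88% of all genes called. The levels of Mir15b lay below the median of 7.19 over all genes and arrays. Mir15b was 4.47 and 4.39 in NKT, 6.04 and 6.30 in T4, and 6.80 and 6.32 in T8 (difference -1.93, SE 0.24, limma adjusted p = 1.13e-05), and Mir505 differed by -1.31 (SE 0.23). In RefSeq, Mir15b lies within Smc4, between Ift80 and Trim59, and these neighbours were lower too, by -1.13, -2.34 and -2.09. The next measured protein-coding genes on either side, 1110032F04Rik and Kpna4, did not pass, at -0.38 and -0.19. Mir16-2, beside Mir15b, did not pass at -0.83. A probe set of this array cannot tell the mature microRNA from its precursor or host transcript. The main arms are given because their seeds, bases 2 to 8 in capitals, set their targets, and they share no seed.
mmu-miR-15b-5p: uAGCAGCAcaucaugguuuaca
mmu-miR-505-3p: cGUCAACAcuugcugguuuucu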
